A study of Mus musculus with 10 samples.

Results

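The vacuolar ATPase (V-ATPase), the hydrolases it serves and the membrane proteins and regulators of the lysosome are described here in hippocampal microglia of 3xTg AD mice that had received glatiramer acetate (GA) or phosphate-buffered saline (PBS). The 35 genes were chosen by symbol, from a list, and all 35 were found among the 55453 genes of the deposited count table. They comprise 5 genes of the membrane-embedded V0 sector of the pump, 8 of the cytosolic V1 sector, 2 accessory proteins, 6 glycosidases, 4 genes of lipid and sterol handling, 1 peptidase and 1 thioesterase, 5 lysosomal membrane proteins, progranulin and 2 transcription factors. All 35 were among the 14481 genes that passed the filter on low counts, and the reads on any of them in a library ran from 381 (*Gla*) to 167065 (*Psap*).

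GA is a mixture of synthetic peptides used as an immunomodulatory drug in multiple sclerosis. Each group held 5 libraries from female 3xTg mice over 15 months old, which by the study's methods were retired breeders and carry mutated human transgenes, APP and MAPT among them, driven by the Thy1.2 promoter, a promoter active in neurons. The GA group received 0.1 mg weekly for approximately 8 weeks by subcutaneous injection, by the study's methods with an additional injection in the first week, and the PBS group received the vehicle alone. Both groups therefore share the transgenes, the sex and the age, and no non-transgenic microglia were analysed here. Cells were sorted as CD45int CD11b+ from hippocampi after a percoll gradient, as the labels state (the study's methods also allow myelin depletion beads), and their RNA was pre-amplified before sequencing. The comparison asks whether GA altered the expression of lysosomal genes in these cells.

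Total counts ran from 32332185 to 38764643 per library, of which 0.129% to 0.180% fell on the mitochondrial genome. The 5 PBS libraries carry the title prefix 388, whereas the GA libraries carry 394 (2 libraries) or 400 (3 libraries). What the prefix stands for is not stated, and prefix and treatment cannot be told apart. The labels do not say that each library came from a separate animal, so p-values measure the spread between these libraries. The sum of 9 microglial markers lay between 53820 and 63890 normalised CPM (counts scaled to a common library size) in PBS and between 54840 and 59300 in GA, whereas 6 neuronal markers summed to at most 1.75. The 6 astrocyte markers summed to 246 to 303 CPM in PBS and 249 to 353 in GA, mostly from *Slc1a3* (means 274 and 289). The 6 oligodendrocyte markers summed to 180.5 to 210 CPM in PBS and 175 to 218 in GA. The 6 endothelial markers summed to 37.1 to 50.2 CPM in PBS and 34.4 to 49.0 in GA. The 7 lymphocyte markers summed to 16.6 to 27.2 CPM in PBS and 16.4 to 24.8 in GA. Neutrophil markers lay in 1 direction. Of 9, 8 passed the filter (all but *Elane*), all 8 had a negative log2 fold change in GA, 7 had an unadjusted p under 0.05 and 0 passed adjustment, with sums of 37.9 to 446 CPM in PBS and 10.9 to 169 in GA. Of 7 monocyte markers 6 passed, all 6 with a negative log2 fold change, with sums of 34.2 to 90.9 CPM in PBS and 36.6 to 51.2 in GA. Of 7 markers of border-associated macrophages all 7 passed, 6 of them negative and 0 with an unadjusted p under 0.05, with sums of 49.5 to 256 CPM in PBS and 49.1 to 195 in GA. Of all these markers only the endothelial *Slco1a4* was at 0 in every library. The part of these cell types in the values given here was not tested.

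Lysosomes digest material taken up by phagocytosis and endocytosis as well as cell components delivered by autophagy, and microglia rely on them to clear debris and protein aggregates. The V-ATPase uses ATP, hydrolysed by the V1 sector, to drive protons through the V0 sector into the lumen, and the resulting acidity lets the hydrolases work. The transcription factors TFEB and TFE3 bind the CLEAR element, a palindrome built around the E-box CACGTG, in the promoters of many lysosomal genes. Loss of function of several of the hydrolases, transporters and progranulin causes lysosomal storage disease in humans.

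The promoters are shown because this element lies in the promoters of many lysosomal genes, although not in most of the windows examined here. Promoter windows from 250 bases before to 50 bases after the listed start were available from RefSeq on GRCm38.p6 for 30 of the 35 genes. No window was matched for *Atp6v1b2*, *Atp6v1c1*, *Atp6v1g1*, *Atp6v1h* and *Npc1*. The letters CACGTG, which read the same on both strands, occurred in the windows of 9 of the 30 genes (30.0%), compared with 8.09% of the 27025 symbols with a window. The 9 were *Atp6v0b*, *Atp6v0d1*, *Atp6v0e*, *Atp6v1a*, *Cln3*, *Gla*, *Glb1*, *Lamp1* and *Mcoln1*. The longer palindrome TCACGTGA, each copy of which also contains a CACGTG, occurred in 6 of 30 (20.0%) compared with 1.12% of symbols. These shares describe the windows only, and a match is not evidence of binding. *Gla*, which encodes α-galactosidase A, held 2 copies.

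Each site is given on the strand of its gene, 5′ to 3′, in 30 bases with TCACGTGA in capitals. *Atp6v0d1* and *Atp6v0e* encode the d and e subunits of the V0 sector, and their sites lie at chr8:105566050-105566079 (minus strand) and chr17:26676387-26676416 (plus strand). The *Atp6v0e*, *Atp6v1a* and *Mcoln1* windows belong to RefSeq starts downstream of the first start of each gene in GENCODE. Their sites therefore lie inside the GENCODE genes. *Atp6v1a* encodes the catalytic A subunit of the V1 sector, with its site at chr16:44139373-44139402 (minus strand). The site of *Cln3*, mutated in juvenile Batten disease, lies at chr7:126583340-126583369 (minus strand) in the window of a further start listed for the gene. The *Gla* sites lie at chrX:134601182-134601211 and chrX:134601215-134601244 (minus strand), and that of *Mcoln1*, which encodes the lysosomal cation channel TRPML1, at chr8:3500462-3500491 (plus strand). The first base of the motif lies at position -4 relative to the listed start in *Atp6v0d1*, 3 in *Atp6v0e*, -132 in *Atp6v1a*, -122 in *Cln3*, -195 and -228 in *Gla*, and -46 in *Mcoln1*.
Atp6v0d1: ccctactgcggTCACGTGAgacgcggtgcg
Atp6v0e: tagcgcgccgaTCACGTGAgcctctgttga
Atp6v1a: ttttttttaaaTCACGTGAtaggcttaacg
Cln3: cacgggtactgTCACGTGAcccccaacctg
Gla, site nearer the start: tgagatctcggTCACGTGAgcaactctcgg
Gla, site farther from the start: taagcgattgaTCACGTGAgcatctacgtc
Mcoln1: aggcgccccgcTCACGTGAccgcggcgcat

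Levels differed widely among the 35 genes. In normalised CPM per kilobase of merged exons, averaged over the 10 libraries, *Psap* stood highest at 1418 ± 209 (SD, n = 10). It encodes prosaposin, the precursor of the saposins that assist sphingolipid breakdown. *Grn* (progranulin) followed at 929 ± 67.0, *Hexa* (the α subunit of β-hexosaminidase) at 782 ± 70.5 and *Lamp1* (a major glycoprotein of the lysosomal membrane) at 654 ± 48.1. The order among them depends on the length used. Per kilobase of the longest transcript, *Psap* was at 1464, *Grn* at 1380, *Lamp1* at 784 and *Hexa* at 782, and these 4 were the highest under both lengths. After a gap came *Atp6ap1* at 241 ± 15.4 and *Man2b1* (lysosomal α-mannosidase) at 239.9 ± 18.7, which did not differ beyond their spread on this scale, although per kilobase of the longest transcript *Man2b1* was at 504 and *Atp6ap1* at 333. At the low end stood *Npc1* at 10.5, *Atp6v1h* at 9.61 and *Gla* at 5.46 ± 1.21. Together the 35 genes held 1.88% to 2.22% of all counts in a library.

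**Figure D1:**
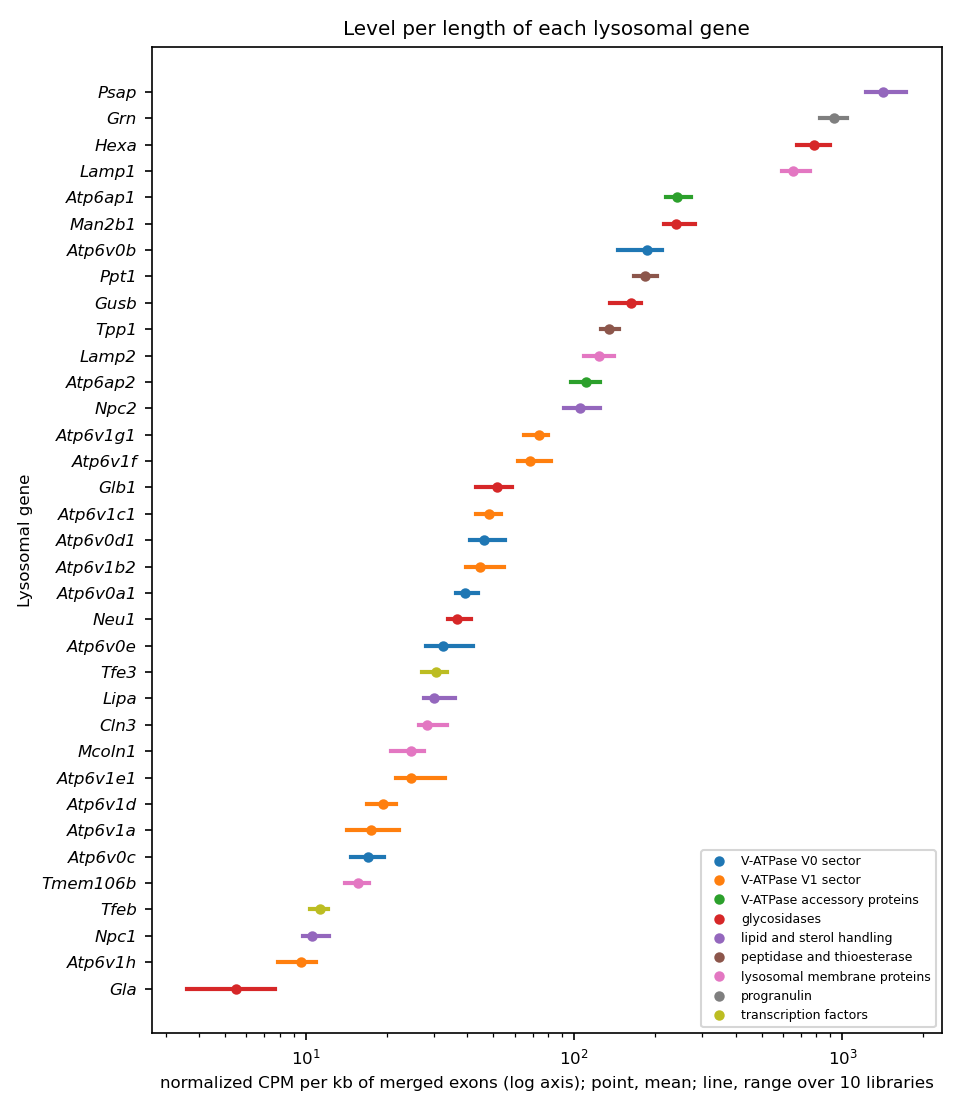
Normalised CPM per kilobase of merged exons for each of the 35 genes, on a log axis, coloured by role. Points are means and lines the range over 10 libraries. *Psap*, *Grn*, *Hexa* and *Lamp1* lie above all others, and *Gla* has the lowest level and a wide range.

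Within the pump, subunits of 1 complex had unequal transcript levels. In the V0 sector *Atp6v0b* (the c″ proteolipid) was highest at 187 per kilobase, against 46.0 for *Atp6v0d1*, 39.2 for *Atp6v0a1*, 32.4 for *Atp6v0e* and 17.1 for *Atp6v0c* (the c proteolipid). In the V1 sector *Atp6v1g1* at 73.8 and *Atp6v1f* at 68.1 stood highest, with overlapping ranges, and *Atp6v1h* lowest. By the longest transcript *Atp6v1f* was at 89.8 and *Atp6v1b2* at 84.0, both above *Atp6v1g1*, and *Atp6v1h* was again lowest. Reads of *Atp6v0c* can be shared with its processed copies. *Atp6v0c-ps2*, looked at after its values were seen, held 806 to 1106 reads per library (24.1 to 33.3 CPM), whereas *Atp6v0c-ps1* had at most 4, so the level of *Atp6v0c* is uncertain. Among isoforms outside the 35 genes, the a-subunit genes *Tcirg1* (106 per kilobase) and *Atp6v0a2* (61.0) both stood above *Atp6v0a1*. The tissue-restricted isoforms *Atp6v0d2* (0.114) and *Atp6v0e2* (0.531) were near the floor, and *Atp6v1g2* (1.75) was low, with 99 to 208 reads per library. *Atp6v0a4*, *Atp6v1b1*, *Atp6v1c2*, *Atp6v1e2* and *Atp6v1g3* did not pass the filter.

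No change of any of the 35 genes with GA passed the test. edgeR called 0 of them at an adjusted p under 0.05, as it called 0 of all 14481 genes tested (0.0%), and DESeq2 also called 0 of the 35, against 2 of 27495 genes (0.00727%). At an unadjusted p under 0.05 edgeR listed 1 of the 35 (*Gusb*) and 833 genes in all (5.75%). The groups were free of overlap for 0 of the 35 genes and for 129 of all genes (0.891%). Log2 fold changes ran from -0.17 (*Atp6v0e*) to 0.21 (*Gla*), with a median of 0.010 over the 35 genes and 0.00020 over all genes. The sign was positive for 20 of the 35 and for 50.1% of all genes. Without the PBS library 388_1 it was positive for 12 of the 35, and the number of the 35 with an unadjusted p under 0.05 was 0 without 388_3, 394_2 or 400_2, 2 without 388_2 and 3 without 388_5. The shares over all genes in these fits with a library left out are not given here.

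The intervals were narrow. In the fit with all libraries, all 35 of the 95% intervals lay inside a 1.5-fold change in either direction (log2 ±0.585), as did those of 62.9% of all genes. A change of that size was thus outside the interval of each of the 35 genes in this fit. The upper bound for *Gla*, at 0.58, lay just inside. Its log2 fold change reached 0.31 with 1 PBS library left out, and the intervals of such fits are not given here. Whether the 1.5-fold limit was set before the intervals were known is not recorded. The count of 35 therefore describes the fit with all libraries only. In that fit the median half-width was 0.16 log2 units. The sign of values this close to 0 was not stable, and 19 of the 35 changed sign in at least 1 of the 21 alternative settings. The SD of log2 CPM within groups had a median of 0.11 over the 35 genes, 0.22 over all genes and 0.14 over the 7329 genes in the same range of levels. It was smallest for *Tfeb* (0.062) and widest for *Gla* (0.32), the gene with the fewest reads. In bulk RNA, fewer cells of a type and less RNA per cell cannot be told apart.

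**Figure D2:**
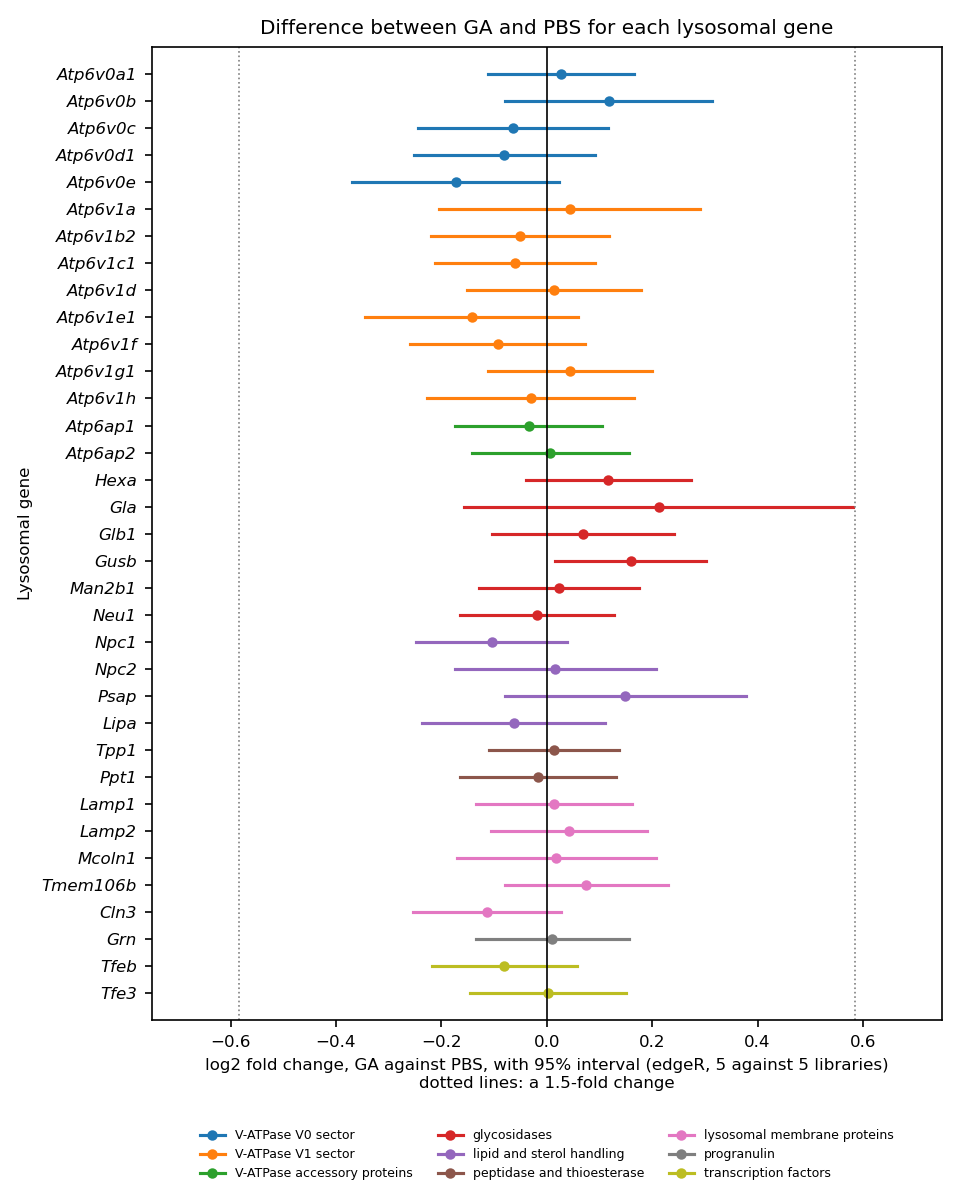
Log2 fold change in GA against PBS for each of the 35 genes, with 95% intervals from edgeR, 5 against 5 libraries, coloured by role. Every interval lies within the dotted lines at a 1.5-fold change, and that of *Gusb* alone leaves out 0.

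The genes whose promoter windows hold TCACGTGA, shown above, lay on both sides of 0. Of the 6, 3 had a positive log2 fold change in GA (*Atp6v1a*, *Gla* and *Mcoln1*) and 3 a negative one (*Atp6v0d1*, *Atp6v0e* and *Cln3*). Their median log2 fold change was -0.031, and that of the genes with a window but without these letters was 0.014. For the shorter CACGTG, 6 of the 9 genes were positive, with medians of 0.018 with and 0.010 without it.

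In the following, gene positions are those of GENCODE M21 on GRCm38, values by library are in the order 388_1, 388_2, 388_3, 388_4 and 388_5 for PBS and 394_1, 394_2, 400_1, 400_2 and 400_3 for GA, intervals are 95% intervals of the log2 fold change, and permutation tests are two-sided over all 252 arrangements of the libraries, with a smallest possible p of 0.00794.

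The V0 sector had 2 genes with a positive and 3 with a negative log2 fold change, and its mean log2 CPM was 7.15 ± 0.089 in PBS and 7.12 ± 0.035 in GA (SD, n = 5). *Atp6v0e* was at 113, 110.0, 122, 156 and 136 normalised CPM in the 5 PBS libraries and at 118, 104, 116, 118 and 109 in the 5 GA libraries (chr17:26663231-26699647, plus strand). The PBS libraries 388_3, 388_4 and 388_5 stood above all GA libraries, and the other 2 overlapped with them. GA against PBS gave a log2 fold change of -0.17 (SE 0.091, interval -0.37 to 0.023), with an edgeR adjusted p of 0.894 and an exact permutation p of 0.143. Without 388_4 the log2 fold change of *Atp6v0e* was -0.089. *Atp6v0b* was at 362, 433, 407, 338 and 297 normalised CPM in the 5 PBS libraries and at 376, 388, 434, 382 and 413 in the 5 GA libraries (chr4:117884326-117887333, minus strand). Here 388_5 was the lowest of the 10 libraries, and the groups overlapped. Its log2 fold change was 0.12 (SE 0.092, interval -0.079 to 0.31), with an edgeR adjusted p of 0.912. Without 388_5 it was 0.055 and without 388_2 0.18. The others were 0.027 for *Atp6v0a1*, which encodes an a subunit of the proton path, -0.080 for *Atp6v0d1* and -0.064 for *Atp6v0c*. With 1 library left out these ranged from 0.0053 to 0.075, from -0.12 to -0.014 and from -0.12 to -0.018. The log2 difference of *Atp6v0c* and *Atp6v0c-ps2* summed was -0.072.

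The V1 sector, which hydrolyses ATP, had 3 positive and 5 negative log2 fold changes, from -0.14 (*Atp6v1e1*, the peripheral stalk subunit E) to 0.044 (*Atp6v1a*). Without 388_4 these were -0.039 and 0.16. Its mean log2 CPM was 6.88 ± 0.13 in PBS and 6.85 ± 0.065 in GA. *Atp6v1g1* was at 89.7, 73.5, 78.4, 81.7 and 89.1 normalised CPM in the 5 PBS libraries and at 86.2, 87.4, 81.1, 79.7 and 90.5 in the 5 GA libraries (chr4:63544772-63550750, plus strand). The levels of this stalk subunit overlapped almost wholly between groups, with a log2 fold change of 0.044 (interval -0.11 to 0.20, edgeR adjusted p 0.963). The remaining V1 values were -0.051 for *Atp6v1b2* (the nucleotide-binding B subunit), -0.060 for *Atp6v1c1* (subunit C), 0.014 for *Atp6v1d* (the central stalk subunit D), -0.093 for *Atp6v1f* (subunit F) and -0.031 for *Atp6v1h* (the regulatory subunit H). *Atp6v1a* had the widest interval of the sector, -0.20 to 0.29. Its PBS libraries spanned 86.1 (388_2) to 135 CPM (388_4), a range that enclosed all 5 GA libraries.

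Both accessory proteins, which help assemble the pump, had log2 fold changes close to 0. *Atp6ap1* was at 663, 701, 722, 775 and 826 normalised CPM in the 5 PBS libraries and at 730.3, 709, 754, 719 and 689 in the 5 GA libraries (chrX:74297097-74304721, plus strand). The GA libraries lay within the range of the PBS libraries. The log2 fold change was -0.034 (SE 0.065, interval -0.17 to 0.11), with an edgeR adjusted p of 0.971. *Atp6ap2*, also known as the (pro)renin receptor, had a log2 fold change of 0.0066 (interval -0.14 to 0.16).

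The glycosidases, which remove sugars from glycolipids and glycoproteins, had 5 positive values and 1 negative one, and their mean log2 CPM was 8.21 ± 0.14 in PBS and 8.31 ± 0.096 in GA. *Gusb* was at 618, 678, 687, 743 and 780.0 normalised CPM in the 5 PBS libraries and at 777, 809.6, 788, 809.7 and 730.1 in the 5 GA libraries (chr5:129989011-130003049, minus strand). *Gusb* encodes β-glucuronidase, which degrades glucuronic-acid-containing glycosaminoglycans. The GA libraries 394_2, 400_1 and 400_2 stood above all PBS libraries, whereas 388_4 and 388_5 overlapped with the lower GA libraries. The means were 701 ± 62.7 in the PBS group and 783 ± 32.7 in the GA group (SD, n = 5). GA against PBS gave a log2 fold change of 0.16 (SE 0.067, interval 0.015 to 0.30), with an edgeR adjusted p of 0.854 (unadjusted p 0.0324) and an exact permutation p of 0.0476. *Gusb* kept its sign, and an adjusted p above 0.05, in all 21 alternative settings, although the unadjusted p exceeded 0.05 when 388_1, 388_2, 388_3, 394_2 or 400_2 was left out and with the GA libraries of either prefix alone.

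*Hexa* was at 1356, 1439, 1514, 1462 and 1723 normalised CPM in the 5 PBS libraries and at 1478, 1542, 1794, 1701 and 1610 in the 5 GA libraries (chr9:59539540-59565109, plus strand). The GA library 400_1 was the highest of the 10, 388_5 came next to it and the groups overlapped. Its log2 fold change was 0.12 (SE 0.073, interval -0.040 to 0.27), with an edgeR adjusted p of 0.895 and an exact permutation p of 0.151. Without 388_5 the log2 fold change of *Hexa* was 0.18. *Gla* had the largest log2 fold change of the 35 genes with all libraries and the widest interval, 0.21 (interval -0.16 to 0.58). Its PBS libraries ran from 11.8 (388_4) to 20.8 CPM (388_3) and its GA libraries from 14.4 (400_3) to 25.1 (400_2). Without 400_2 the log2 fold change of *Gla* was 0.100, below the 0.15 of *Gusb* in the same fit, and without 388_3 it was 0.31. The others were 0.069 for *Glb1* (β-galactosidase), 0.023 for *Man2b1* and -0.019 for *Neu1* (a sialidase). Without 388_1, the PBS library with the lowest glycosidase levels, the log2 fold changes of *Gusb* and *Hexa* were 0.12 and 0.083.

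**Figure D3:**
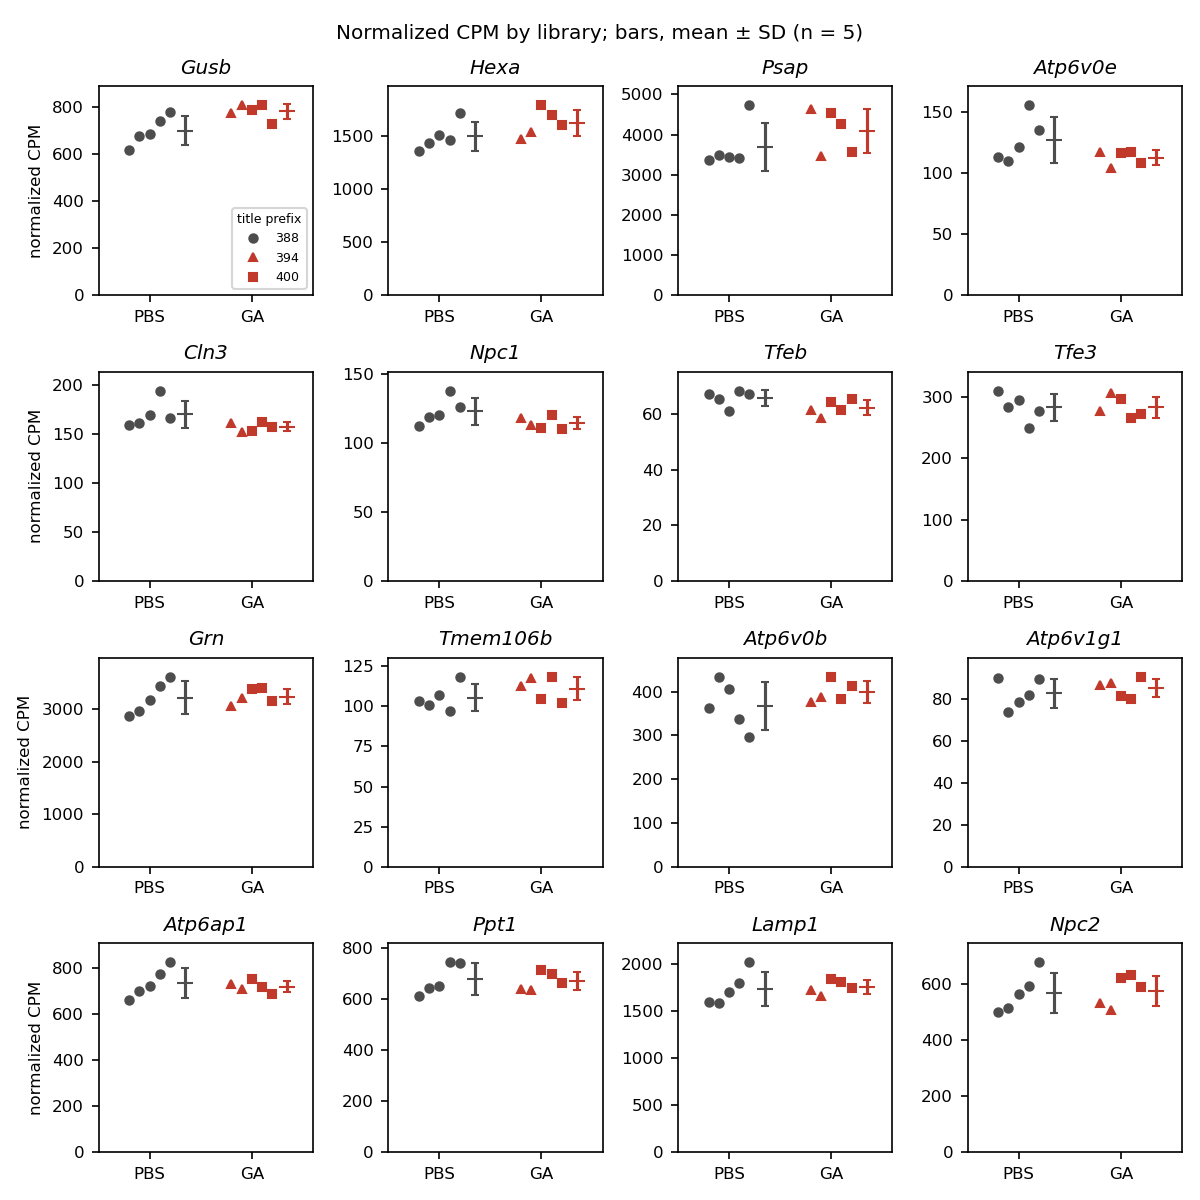
Normalised CPM in each library for 15 genes chosen by rule and *Npc2*, on linear axes from 0, with symbols for the title prefix and bars for the mean ± SD (n = 5 per group). The 2 groups overlap in each panel, *Gusb* and *Cln3* included.

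Lipid and sterol handling was split between 2 positive and 2 negative values. *Psap* was at 3361, 3499, 3440, 3410 and 4735 normalised CPM in the 5 PBS libraries and at 4636, 3469, 4530, 4257 and 3560 in the 5 GA libraries (chr10:60277627-60302597, plus strand). The PBS library 388_5 and the GA libraries 394_1, 400_1 and 400_2 stood between 4257 and 4735, and the other 4 PBS and 2 GA libraries between 3361 and 3560. The log2 fold change was 0.15 (SE 0.11, interval -0.080 to 0.38), with an edgeR adjusted p of 0.904 and an exact permutation p of 0.302. Without 388_5 the log2 fold change of *Psap* was 0.26 (unadjusted p 0.00767, not called). *Npc1* was at 112, 119, 120.5, 138 and 126 normalised CPM in the 5 PBS libraries and at 118, 113, 111, 120.1 and 110.2 in the 5 GA libraries. NPC1 is the membrane protein that exports cholesterol from the lysosome. The GA libraries 400_1 and 400_3 stood below all PBS libraries and 388_4 was the highest, and the groups overlapped. GA against PBS gave a log2 fold change of -0.10 (SE 0.067, interval -0.25 to 0.039), with an edgeR adjusted p of 0.895. Without 388_4 it was -0.060. *Npc2*, whose soluble product hands cholesterol to NPC1, had 0.016 (interval -0.17 to 0.21), and *Lipa*, the lysosomal acid lipase, had -0.063 (interval -0.24 to 0.11).

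The peptidase *Tpp1* and the thioesterase *Ppt1*, both mutated in neuronal ceroid lipofuscinosis, had log2 fold changes close to 0. *Ppt1* was at 612, 643, 652, 746 and 745 normalised CPM in the 5 PBS libraries and at 642, 639, 714, 699.9 and 664 in the 5 GA libraries (chr4:122836242-122859175, plus strand). The PBS libraries enclosed the GA range. Its log2 fold change was -0.017 (SE 0.069, interval -0.16 to 0.13), with an edgeR adjusted p of 0.982. *Tpp1* had a log2 fold change of 0.013 and, at -0.11 to 0.14, the narrowest interval of the 35 genes.

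Of the lysosomal membrane proteins, 4 had a positive and 1 a negative value. *Cln3* was at 159, 161, 169, 194 and 166 normalised CPM in the 5 PBS libraries and at 161, 152, 153, 162 and 157 in the 5 GA libraries (chr7:126571207-126585817, minus strand). The GA libraries 394_2, 400_1 and 400_3 stood below all PBS libraries, and 388_4 was the highest. The means were 169.9 ± 13.9 in the PBS group and 157 ± 4.68 in the GA group (SD, n = 5). The log2 fold change was -0.11 (SE 0.065, interval -0.25 to 0.026), with an edgeR adjusted p of 0.894 and an exact permutation p of 0.0476. Without 388_4 the log2 fold change of *Cln3* was -0.062. Exons of *Cln3* overlap those of *Apobr* on the opposite strand, and this kind of library does not mark strand.

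*Lamp1* was at 1594, 1586, 1702, 1796 and 2020 normalised CPM in the 5 PBS libraries and at 1728, 1663, 1839, 1815 and 1742 in the 5 GA libraries (chr8:13159161-13175338, plus strand). The GA libraries fell inside the PBS range, with a log2 fold change of 0.015 (interval -0.13 to 0.16, edgeR adjusted p 0.984). *Tmem106b* was at 103, 101, 107, 96.9 and 119 normalised CPM in the 5 PBS libraries and at 112, 118, 105, 118 and 102 in the 5 GA libraries (chr6:13069759-13089269, plus strand). This gene, a risk locus for frontotemporal dementia, overlapped fully between groups, with a log2 fold change of 0.075 (interval -0.079 to 0.23, edgeR adjusted p 0.938). *Lamp2* had 0.042 and *Mcoln1* 0.018.

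Progranulin, a secreted and lysosomal glycoprotein, was second to *Psap* among the 35 genes in level per kilobase. *Grn* was at 2876, 2964, 3180, 3440 and 3623 normalised CPM in the 5 PBS libraries and at 3055, 3205, 3384, 3401 and 3153 in the 5 GA libraries (chr11:102430315-102437048, plus strand). The GA libraries lay within the PBS range. The means were 3216 ± 315 in the PBS group and 3240 ± 149.8 in the GA group (SD, n = 5), and the log2 fold change was 0.010 (interval -0.13 to 0.16, edgeR adjusted p 0.990).

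*Tfeb* was at 67.2, 65.4, 61.4, 68.5 and 67.4 normalised CPM in the 5 PBS libraries and at 61.7, 58.6, 64.4, 61.8 and 65.4 in the 5 GA libraries (chr17:47737030-47792419, plus strand). The GA library 394_2 was below all PBS libraries, and the PBS library 388_3 lay among the GA libraries. GA against PBS gave a log2 fold change of -0.081 (SE 0.064, interval -0.22 to 0.056), with an edgeR adjusted p of 0.917 and an exact permutation p of 0.0873. *Tfe3* was at 309.9, 284, 295, 249.9 and 276 normalised CPM in the 5 PBS libraries and at 276, 306, 296, 266 and 272 in the 5 GA libraries (chrX:7762560-7775202, plus strand). The GA libraries lay inside the PBS range, with a log2 fold change of 0.0023 (interval -0.15 to 0.15, edgeR adjusted p 0.997). Per kilobase *Tfe3* (30.6) stood above *Tfeb* (11.3), and of the other factors of the family *Mitf* was at 2.85 and *Tfec* at 0.068. *Mitf* had a log2 fold change of -0.31 (SE 0.12, unadjusted edgeR p 0.0205, adjusted p 0.847), with 3 GA libraries below all PBS libraries.

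Averaged over the 35 genes, log2 CPM was 8.02 ± 0.089 in PBS and 8.02 ± 0.039 in GA (SD, n = 5), a difference of 0.0058 against an SD between libraries of 0.069. With each gene scaled to an SD of 1, the difference was -0.014 SD units, of the opposite sign and within an SD between libraries of 0.56. The PBS libraries spanned the whole range. Relative to the mean of all 10, they lay at -0.094 (388_1), -0.083 (388_2), -0.0052 (388_3), 0.050 (388_4) and 0.12 (388_5). The GA libraries lay between, at 0.0059 (394_1), -0.046 (394_2), 0.030 (400_1), 0.050 (400_2) and -0.025 (400_3).

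In 388_5, 31 of the 35 genes were above their own median over the 10 libraries, whereas 7 were in 388_1 and 7 in 388_2. Of the 35 genes, 14 had their highest level in 388_5 and 11 in 388_4, while 14 had their lowest in 388_1 and 7 in 394_2. The genes of the mitochondrial genome took 0.175% of counts in 388_5 and 0.180% in 388_4, the highest shares of the 10 libraries, and 0.129% in 388_1, the lowest. The sum of microglial markers was also highest in 388_5. The part of these in the levels of the lysosomal genes was not tested.

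The roles did not move as one across libraries. In 388_4 the V1 sector stood 0.18 log2 units above its mean over the 10 libraries and the V0 sector 0.13 above, whereas the glycosidases stood at -0.14. In 388_5 the glycosidases (0.15), lipid and sterol genes (0.23), accessory proteins (0.18) and progranulin (0.17) were high while the V0 sector was at 0.035. *Atp6v0a1*, *Atp6v0b* and *Mcoln1* were at their lowest in 388_5, against the direction of most others.

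**Figure D4:**
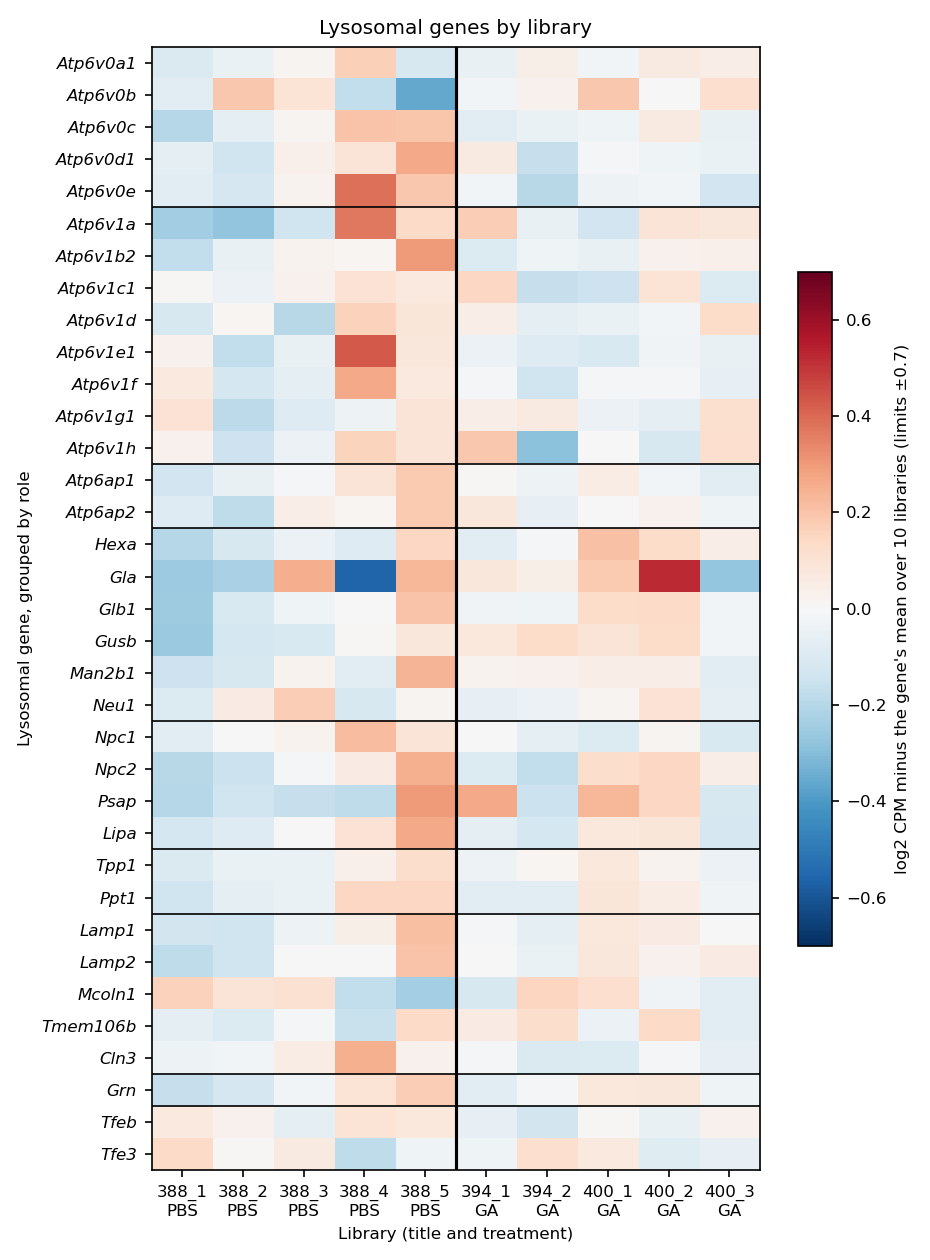
Log2 CPM of each of the 35 genes minus its mean over the 10 libraries, with genes ordered by role and libraries by treatment (PBS left of the bold line). The columns of 388_1 and 388_2 are mostly below the mean and that of 388_5 mostly above, and no row separates PBS from GA.

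**Figure D5:**
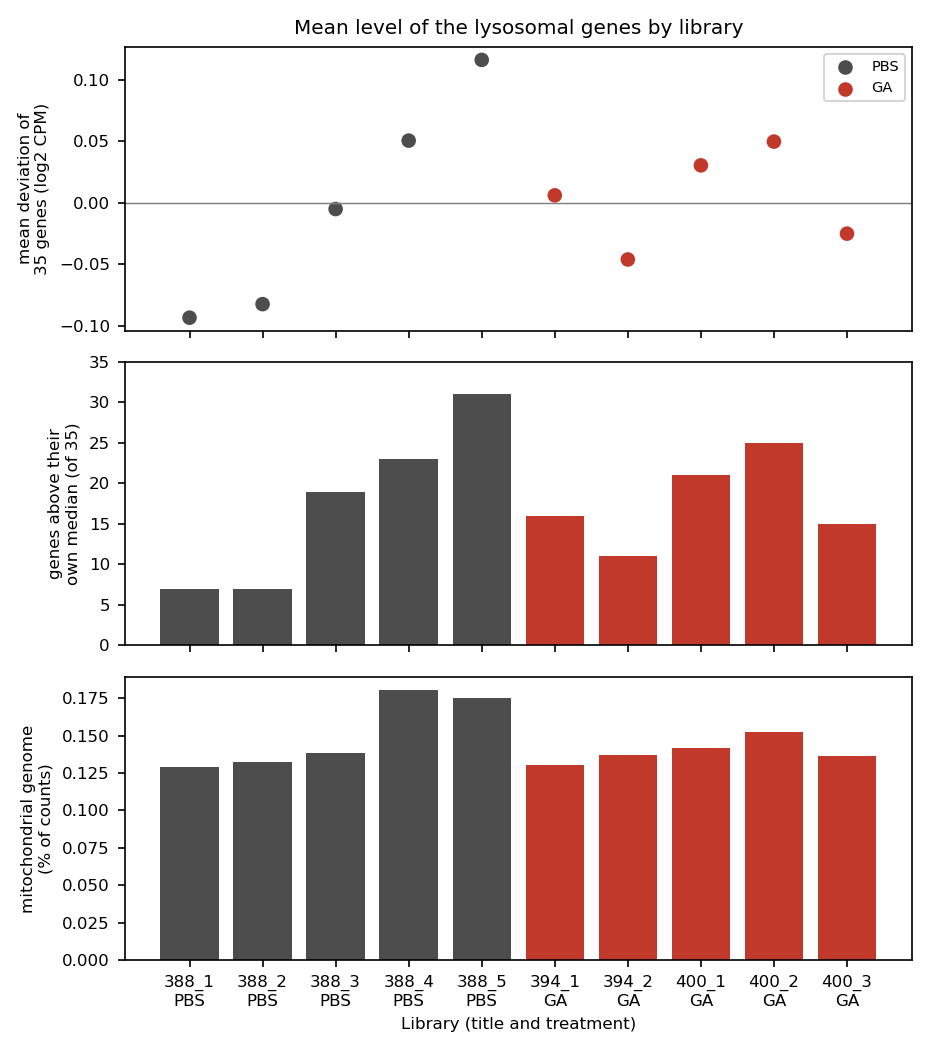
Mean deviation of the 35 genes in log2 CPM (top), number of genes above their own median (middle) and percentage of counts on the mitochondrial genome (bottom) in each library. The 5 PBS libraries run from -0.094 to 0.12 and enclose the GA libraries.

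The GA libraries of the prefixes 400 (3 libraries) and 394 (2 libraries) were compared to see whether the lysosomal genes varied within the GA group. edgeR called 0 of the 35 genes and 2 of 15076 genes in all (0.0133%), and DESeq2 called 1 of the 35 (*Npc2*) and 215 of 15199 (1.41%). At an unadjusted p under 0.05, edgeR listed 2 of the 35, *Npc2* and *Hexa*, against 1528 genes in all (10.1%). *Npc2* was at 499, 515, 564, 593 and 678 normalised CPM in the 5 PBS libraries and at 534, 506, 620.2, 631 and 589.5 in the 5 GA libraries (chr12:84754562-84773152, minus strand; this gene was chosen after its values were seen). The 3 libraries of prefix 400 stood above the 2 of prefix 394, with a log2 fold change of 0.24 (SE 0.059, interval 0.10 to 0.37, edgeR adjusted p 0.272, DESeq2 adjusted p 0.0372). *Hexa* had 0.17 (interval 0.042 to 0.31, edgeR adjusted p 0.357, DESeq2 adjusted p 0.247). The log2 fold change was positive for 25 of the 35 genes and for 51.5% of all genes, with medians of 0.034 and 0.0067. The PBS libraries of *Npc2* alone, from 499 to 678 CPM, spanned a wider range than the GA libraries of both prefixes.

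Outside the 35 genes, 102 further genes of the lysosome and its regulation were examined in 6 lists, of which 95 passed the filter. In GA, 46 had a positive and 49 a negative log2 fold change, 0 were called by edgeR, and 3 (3.16%) had an unadjusted p under 0.05, against 5.75% of all genes. These 3 were *Mitf*, *Tpcn1*, which encodes an endolysosomal cation channel (log2 fold change -0.32, SE 0.13, unadjusted p 0.0264, adjusted p 0.854), and *Mfsd8*, a membrane protein mutated in neuronal ceroid lipofuscinosis (0.23, SE 0.10, unadjusted p 0.0425, adjusted p 0.854). For *Mfsd8*, 4 GA libraries stood above all PBS libraries.

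The 28 other hydrolases and cofactors all passed, 15 positive and 13 negative, with a median log2 fold change of 0.0076. The smallest p among the positive values was that of *Lgmn*, which encodes legumain (0.14, unadjusted p 0.0913), and among the negative ones that of *Hgsnat*, a membrane-bound acetyltransferase of heparan sulfate breakdown (-0.15, unadjusted p 0.186). Of 20 other membrane proteins and channels 19 passed, 8 positive and 11 negative. All 8 genes that sort enzymes to the lysosome had a positive value, with a median of 0.10. The smallest p in that list was that of the sorting receptor gene *Sort1* (0.15, unadjusted p 0.0904, adjusted p 0.895), so none of the 8 passed the test. Of 20 factors and nutrient-sensing regulators 19 passed, 7 positive and 12 negative. Beside *Mitf*, the smallest p in the positive direction was that of *Rragc*, a Rag GTPase that recruits mTORC1 to the lysosome (0.12, unadjusted p 0.0861). The 16 autophagy genes had 6 positive and 10 negative values, with the smallest p in each direction for *Wipi1* (0.37, unadjusted p 0.0841) and *Map1lc3b*, which encodes an LC3 protein (-0.15, unadjusted p 0.0549). Of the 10 other V-ATPase subunits and isoforms, 5 passed, 2 positive and 3 negative, with the smallest p in each direction for *Atp6v0d2* (0.78, SE 1.06) and *Atp6v0e2* (-0.34, SE 0.41), both at very low counts.

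Reads of 10 of the 35 genes may be shared with another gene whose exons overlap theirs in the annotation. These were *Atp6v0b* (*Gm12841*), *Atp6v1e1* (*Slc25a18*), *Atp6v1h* (*Rgs20*), *Hexa* (*Tmem202*), *Glb1* (*Tmppe*), *Npc1* (*Gm15956* and *Rmc1*), *Ppt1* (*Cap1*), *Lamp1* (*Grtp1*), *Cln3* (*Apobr*) and *Grn* (*Fam171a2*). How the counting assigned such reads is not given in the sources used here.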

How the data were processed

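RNA of sorted hippocampal microglia was sequenced as single-end reads in 10 libraries, 5 per treatment. The authors deposited raw read counts per gene symbol for 55453 genes, without normalization. The submitters' processing notes name bcl2fastq 2.19.0, fastp 0.20.0, STAR 2.7.0f, Subread 1.6.4, featureCounts and DESeq2 with GRCm38.p6. The annotation and the strand setting used for counting are not given in the sources used here. Each of the 10 columns matched 1 sample title, and 0 were left without a sample.

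Low genes were removed by filterByExpr (minimum count 10), libraries were scaled by TMM, and GA was tested against PBS with the quasi-likelihood F-test of edgeR 4.0.16 in R 4.3.3, without a covariate, over all genes, with Benjamini-Hochberg adjustment and a threshold of 0.05. Normalised CPM uses TMM library sizes. For single genes an exact permutation test was added, on log2(CPM + 0.1). DESeq2 1.42.0, limma-voom (limma 3.58.1), other scalings and filters, left-out libraries, a block by title number and single GA prefixes were alternatives. Positions and exon lengths come from GENCODE M21 (GRCm38), and promoter windows from RefSeq on GRCm38.p6.

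The genes and lists were chosen with earlier results of these data known. Values by library are given for the 3 genes with the smallest p in each direction, both transcription factors, *Grn*, *Tmem106b* and the gene highest per length in each role. Of each list of further lysosomal genes, but not of the cell type markers, the gene with the smallest p in each direction is named. *Npc2*, *Gla* and *Atp6v0c-ps2* were chosen after their values were seen. The reads carry no molecular identifiers, so they are not independent molecules.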

Additional observations from a re-analysis of the deposited data

Results flagged for a closer look

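Within each group of 5, the levels of the 35 genes and their mean were checked for a library far from the rest. The ratio used was the gap to the nearest library over the range of the group, in log2 CPM, against a critical value of 0.71. Of 72 such groups 2 exceeded it, and chance alone flags about 1 in 20. *Psap* in the PBS library 388_5, at 4735 CPM, stood above the other PBS libraries at 3361 to 3499 (ratio 0.883). *Man2b1* in the GA library 400_3, at 1821 CPM, stood below the other GA libraries at 1951 to 1986 (ratio 0.793). The PBS libraries of *Man2b1* ran from 1738 to 2263 CPM, so that the low GA value lay within them.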

How the results depend on the processing

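No setting tried called any of the 35 genes in GA against PBS. Over 21 alternatives, 16 of the 35 log2 fold changes never changed sign and 19 did so at least once, 55 times in 735 values, and 1 moved by more than the SD between libraries. The number of genes with a positive value, 20, ranged from 12 (without 388_1) to 22 (without 388_5) as libraries were left out, with 14 without 388_2, and was 17 with the GA libraries of prefix 394 alone and 21 with those of prefix 400. The number with an unadjusted p under 0.05 was 1, ranged from 0 (without 388_3, 394_2 or 400_2) to 3 (without 388_5, *Gusb*, *Hexa* and *Psap*), was 2 without 388_2 (*Atp6v0e* and *Atp6v1e1*) and was 0 with prefix 394 alone. The shares over all genes under these alternative settings are not given here, so the counts describe the 35 genes only. The difference in mean log2 CPM, 0.0058, ranged from -0.017 to 0.036 with a library left out, and the difference of the medians over the genes was -0.063, all within the SD between libraries of 0.069. In the prefix 400 against 394 comparison, 0 of the 35 were called by edgeR and 1 by DESeq2 (*Npc2*).

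With the title number as a replicate block, 0 of the 35 were called, 5 had an unadjusted p under 0.05 (*Gusb*, *Atp6v1a*, *Psap*, *Lamp2* and *Hexa*), 26 were positive, and *Atp6v1a* moved to 0.27. The numbers 4 and 5 occur in PBS only, so 388_4 and 388_5 did not enter the difference in this fit. Both had a higher mean level of the 35 genes than the other PBS libraries. The shares over all genes in this fit are not given here. Whether the numbers pair the libraries cannot be told. Deviations of same-numbered libraries correlated across genes at -0.12 to 0.049 over 5 pairs, 0 of them above 0.1, and the numbers repeat between the GA prefixes. Libraries of different numbers correlated at -0.11 to 0.071. With no known pair to compare, these values cannot decide the question.

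Counts set few limits, since even *Gla* had 381 reads or more per library, whereas the spread between libraries leaves a median half-width of 0.16 log2 units around a difference. With the longest transcript in place of merged exons, 1 gene (*Mcoln1*) moved by more than 5 places in the order of levels per length. The cause of the shifts given here was not tested.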
